A study of Rattus norvegicus with 8 samples.

Results

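A set of 10 genes of the antioxidant and phase II defence, all regarded as targets of the transcription factor NRF2 or encoding NRF2 itself, were followed in small intestine, spleen and liver of rats given lavender oil (LO). They were chosen by the accession that the array lists for a feature, and 10 of 10 accessions were found: Nfe2l2 (NM_031789), Nqo1 (NM_017000), Gclc (NM_012815), Gclm (NM_017305), Txnrd1 (NM_031614), Gpx2 (BQ196649), Hmox1 (NM_012580), Gsta2 (NM_017013), Gstp1 (NM_012577) and Ephx1 (NM_012844). They were measured by 13 of the 41012 probes on the array, with 3 probes for Txnrd1 and 2 for Gsta2. The Gpx2 member probe was designed on an expressed sequence tag that the gene reference used here did not name. Its identity as Gpx2 was taken from the list of members and was not checked by sequence. A second Gpx2 probe, on the transcript NM_183403, was added for comparison after its values were seen.

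The rats were 12 males aged 7 weeks, named as Wistar in the sample annotation and as F334 in the text on housing. The control group of 6 received 10% ethanol into the stomach, and the LO group of 6 received Lavandula angustifolia oil at 5 mg/kg in 10% ethanol, once daily for 13 days, and dissection is dated to day 14 in the account of the design and to 14 days after treatment elsewhere. All groups therefore carried the ethanol vehicle, and a group of untouched rats was not analysed here. RNA was pooled, and a control pool and an LO pool were hybridized together on 2 arrays with the dyes swapped, LO being in Cy5 on array 1 and in Cy3 on array 2. There were 4 such pairs and 8 arrays: 1 pair each for the small intestine and the spleen, and 2 for the liver, named Group1 and Group2. Whether the liver groups hold different rats or different blocks of tissue was not given in the sources used here. A pair of arrays repeats the same RNA, so it counted as 1 replicate. Each tissue was on a slide of its own, and tissue and slide cannot be told apart.

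NRF2, the product of Nfe2l2, is held in the cytoplasm by KEAP1 and degraded. When electrophiles or oxidants modify KEAP1, NRF2 accumulates and enters the nucleus. There it pairs with a small MAF protein and binds the antioxidant response element in front of its target genes. The targets make and use glutathione and thioredoxin, reduce quinones, break down heme, and conjugate or hydrolyse reactive foreign compounds. The liver and the intestine are the tissues best known for this defence, since they meet absorbed compounds first, whereas the spleen is known for the turnover of red blood cells and their heme.

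The element is shown here because it is what ties the 10 genes together by name. Its core, TGACNNNGC on either strand, was looked for from 250 bases before to 50 bases after each start site in the RefSeq promoters of the GRCr8 build. It was present in 12.1% of 33469 promoters. Promoters were found for 9 of the 10 members, and 7 of these 9 held a match in at least 1 of their promoters (Txnrd1 and Ephx1 have 2 promoters each, 1 of them with a match). The other members of the 9 were Nqo1 and Gclc, whose windows did not hold these letters. In Gsta2 and Nfe2l2 the match lay after the start site and is not printed. The remaining matches are given 5′ to 3′ on the strand of the gene, with the core in capitals as read on that strand. They lie at chr2:213031947-213031987 (Gclm, plus strand), chr7:22755958-22755998 (Txnrd1, minus strand), chr1:210769742-210769782 (Gstp1, minus strand), chr13:95263150-95263190 (Ephx1, minus strand) and chr6:101230034-101230062 (Gpx2, minus strand), with the core starting 172, 78, 61, 57 and 13 bases upstream of the start site, respectively.
Gclm: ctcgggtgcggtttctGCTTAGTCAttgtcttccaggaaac
Txnrd1: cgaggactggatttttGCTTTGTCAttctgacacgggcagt
Gstp1: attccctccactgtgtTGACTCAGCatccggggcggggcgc
Ephx1: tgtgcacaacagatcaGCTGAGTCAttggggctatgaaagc
Gpx2: gtgggtacctggtttcGCTAAGTCAttct
The Gstp1 core stands in the forward direction and the others in the reverse direction. A match describes the letters of the window and is no evidence of binding in these tissues.

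The LO/control ratios of these genes lay close to 1 wherever the signal was well above background. A probe is called bright where every array of a tissue measured both dyes well above background. For the bright member probes the mean ratio ran from 0.900 to 1.14 in small intestine (13 of 13 probes), from 0.971 to 1.17 in spleen (9 of 13) and from 0.917 to 1.12 in liver (11 of 13). The levels differed between tissues, for example 29.2-fold for Hmox1 and 22.6-fold for Ephx1, where every reading of both tissues was well above background. Hmox1 was highest in spleen, Ephx1, Nqo1 and Gclc in liver, and Gstp1, Gpx2 and Nfe2l2 in small intestine, while Gsta2 was high in liver and small intestine and hardly detected in spleen.

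Both dyes were well above background at 44.3% to 64.7% of an array's features, and no feature was saturated. The labelled tissues were checked by their markers on the same scale. The 3 probes of Alb, the main plasma protein of hepatocytes, gave mean normalized signals of at least 132519 in liver, at most 428 in spleen and at most 10.7 in small intestine. Fabp2, the fatty acid binding protein of enterocytes, gave 158745 in small intestine, 449 in liver and 7.70 in spleen, where it was not well above background. Apoa1, made by both hepatocytes and enterocytes, gave 88694 in liver, 135545 in small intestine and 20.5 in spleen. Cd79b, part of the B cell receptor, gave 20719 in spleen, 176 in small intestine and 34.9 in liver. No probe was matched to Vil1. Other cell type markers that were looked at did not all separate the tissues. Defa5, taken as a Paneth cell marker, gave 2523 in spleen and 6.32 in small intestine, where 0 of 4 readings were above background. Apoa4 and Cdh17 (probe A_43_P13004), taken as enterocyte markers, were highest in small intestine but gave 127870 and 9230 in liver. The log2 LO/control values of array 1 and array 2 of a pair correlated across probes at -0.631 (small intestine), -0.596 (spleen), -0.721 (liver Group1) and -0.720 (liver Group2), so single-array ratios turned with the dye, and both arrays are given for each gene below.

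The first comparison asked at what level each gene is expressed in each of the tissues. Levels are normalized signals, that is, dye-normalized intensities put on a common scale over the arrays, averaged over both dyes for each pooled RNA, so each tissue has a control value and an LO value, and the liver has 4 values. Only the same probe is compared across tissues. The limma test used log2 signals of the 8 pooled RNAs with the pair of arrays as a random block. The mean of control and LO per pair, with 1 value for each of the 4 pairs, was fitted as a stricter alternative. It was added after the data were seen, because the block fit made too many false calls on simulated data. The simulated correlation within pairs (0.308) was lower than that estimated from these arrays (0.874). In bulk tissue, fewer cells of a type and less RNA per cell cannot be told apart.

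**Figure D1:**
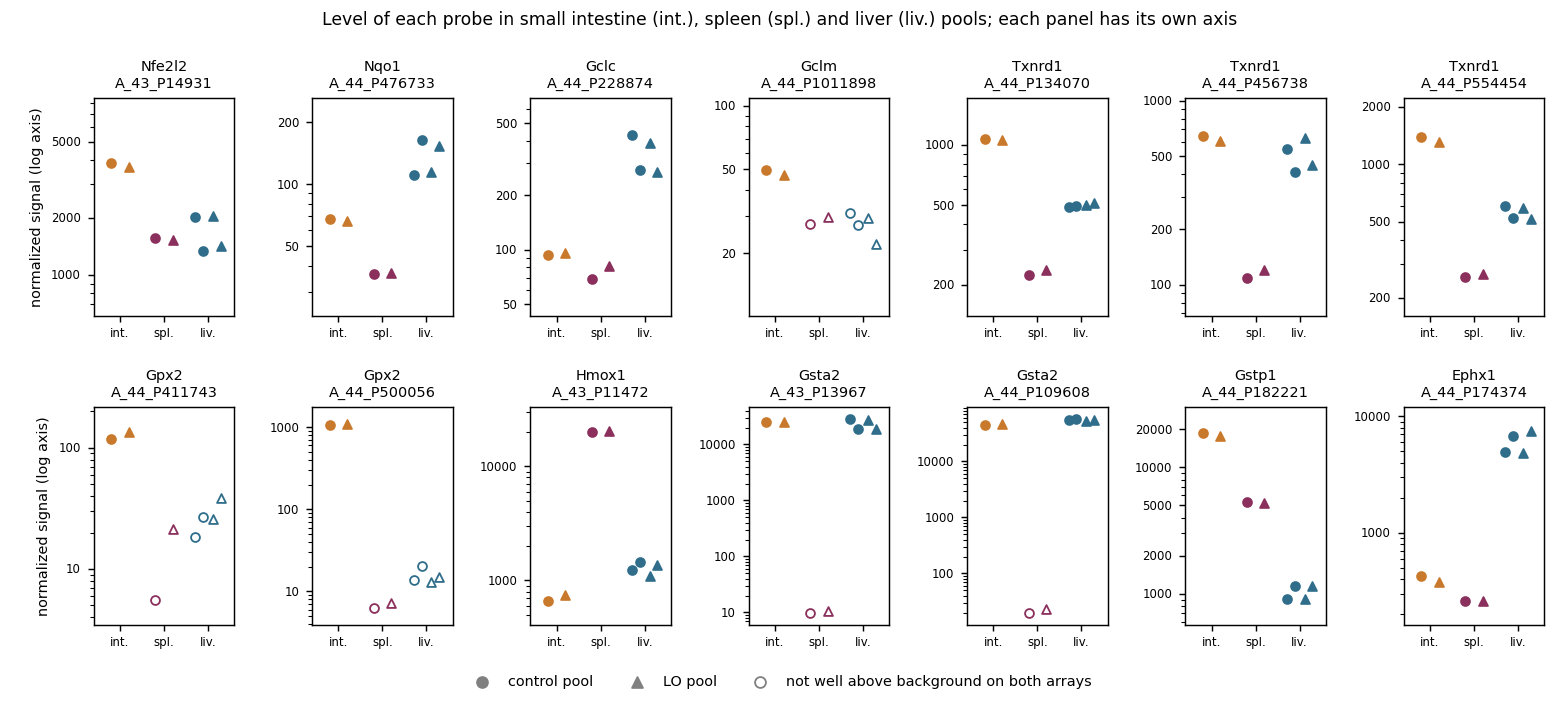
Normalized signal (log axis, each panel with its own range) of the 13 member probes and the NM_183403 probe of Gpx2 in the control (circles) and LO (triangles) pools of small intestine, spleen and liver; open symbols were not well above background on both arrays. Control and LO symbols of most pairs lie close together, and those of the Gpx2 probe A_44_P411743 in spleen are furthest apart. The tissues stand apart in most panels, though liver overlaps another tissue for Nfe2l2, Gclm, that Gpx2 probe, Gsta2 A_43_P13967 and Txnrd1 A_44_P456738. In most panels the 2 liver groups are further from each other than LO is from control.

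Nfe2l2, the regulator itself (chr3:81001529-81031165, GRCr8), was most abundant in small intestine. Its signals were 3859 (control) and 3714 (LO) in small intestine, 1569 and 1524 in spleen, and 2019, 2037, 1340 and 1422 in liver (control and LO of Group1, then of Group2). The small intestine stood above all other pools, and the spleen values lay between those of the liver groups. It was 2.26-fold lower in liver than in small intestine (log2 difference -1.18, 95% confidence interval -1.88 to -0.48, limma adjusted p = 0.0197) and 2.45-fold lower in spleen than in small intestine (adjusted p = 0.0323). With 1 value per pair these adjusted p-values were 0.132 and 0.20, so neither call held. Liver and spleen differed by a log2 of 0.11 (interval -0.59 to 0.81).

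Gclc and Gclm encode the catalytic and modifier subunits of glutamate-cysteine ligase, which makes the rate-limiting step of glutathione synthesis. Gclc (chr8:87510251-87548896) gave 93.8 and 95.4 in small intestine, 68.9 and 80.7 in spleen, and 430, 391, 277 and 269 in liver. Every liver value was above every value of the other tissues. Gclc was 4.49-fold higher in liver than in spleen (adjusted p = 0.00422; 0.0331 with 1 value per pair) and 3.54-fold higher in liver than in small intestine (adjusted p = 0.0105; 0.0604 with 1 value per pair). Gclm (chr2:213032135-213052192) was dim, with 49.4 and 46.8 in small intestine, 27.6 and 29.7 in spleen, and 30.9, 29.3, 27.3 and 22.2 in liver. Only 2 of 8 liver readings and 2 of 4 spleen readings were well above background. None of the 3 tissue differences of Gclm passed the test (adjusted p between 0.108 and 0.88).

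Nqo1 encodes NAD(P)H quinone dehydrogenase 1, which reduces quinones, and its transcript is the usual readout of NRF2 activity. Its probe (chr19:52205374-52220267) gave 67.4 and 65.9 in small intestine, 36.6 and 37.0 in spleen, and 110, 115, 163 and 153 in liver. The tissues did not overlap, and the order was liver, small intestine, spleen. Nqo1 was 3.63-fold higher in liver than in spleen (adjusted p = 0.00217; 0.0404 with 1 value per pair). It was 2.0-fold higher in liver than in small intestine (adjusted p = 0.0286), a call that did not hold with 1 value per pair (0.165). The step between small intestine and spleen did not pass (adjusted p = 0.0963).

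Txnrd1 encodes the cytosolic thioredoxin reductase, a selenoprotein. Its 3 probes (chr7:22717620-22802553) had the spleen lowest in every case. Probe A_44_P554454 gave 1380 and 1298 in small intestine, 257 and 267 in spleen, and 603, 590, 523 and 515 in liver. Spleen was 4.58-fold, 5.47-fold and 5.11-fold lower than small intestine with the probes A_44_P134070, A_44_P456738 and A_44_P554454 (adjusted p = 0.00115, 0.00485 and 0.00133), and with 1 value per pair the adjusted p-values were 0.0546, 0.0566 and 0.0506. For liver against small intestine the probes gave different calls with the block, and none with 1 value per pair. A_44_P134070 and A_44_P554454 were 2.12-fold and 2.41-fold lower in liver (adjusted p = 0.00672 and 0.00566; 0.109 and 0.0858 with 1 value per pair), whereas A_44_P456738 differed by a log2 of -0.31 (interval -1.11 to 0.48, adjusted p = 0.481).

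Gpx2 encodes the gastrointestinal glutathione peroxidase, a selenoprotein known from the gut epithelium. The member probe gave 119 and 135 in small intestine, 5.54 and 21.4 in spleen, and 18.4, 25.7, 26.7 and 38.6 in liver. In spleen 0 of 4 readings and in liver 3 of 8 readings were well above background, so only the small intestine has a measured level. Its level was at least 6.37-fold higher in small intestine than in spleen, and the difference did not pass the test with the pair as block (adjusted p = 0.142), though it did with 1 value per pair (0.0329). This probe had much the widest interval of the 13, from -7.23 to 0.14 on the log2 scale. The probe on NM_183403 (gene at chr6:101226745-101230033) gave 1055 and 1096 in small intestine, 6.28 and 7.19 in spleen, and 13.8, 13.0, 20.4 and 15.0 in liver. It was at least 61.5-fold higher in small intestine than in spleen (adjusted p = 0.00042) and at least 31.9-fold higher in small intestine than in liver (adjusted p = 0.000273), where 1 of 8 readings was well above background. An "at least" fold sets the bright tissue against the lowest signal that was well above background on each array, or the dim probe's own signal where that was higher, and it is used here also where only some readings of the dim tissue were above background.

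Hmox1 encodes heme oxygenase 1, which opens the heme ring and releases iron and carbon monoxide. Its probe, printed 10 times on the array (chr19:13452365-13479823), gave 20039 and 20585 in spleen, 1231, 1097, 1449 and 1367 in liver, and 654 and 739 in small intestine. The order was spleen, liver, small intestine, with no overlap. Spleen was 29.2-fold above small intestine (log2 difference 4.87, interval 3.96 to 5.77, adjusted p = 0.000379; 0.0163 with 1 value per pair) and 15.9-fold above liver (log2 difference of liver minus spleen -3.99, interval -4.77 to -3.21, adjusted p = 0.000206; 0.00812 with 1 value per pair). Liver and small intestine differed 1.84-fold (adjusted p = 0.0736). The erythroid probes of Hbb and Alas2 were also highest in spleen, with mean signals of 67746 and 41219 against 3915 and 1690 in liver and 914 and 185 in small intestine. Their part in the Hmox1 level was not tested.

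Gsta2, Gstp1 and Ephx1 act on foreign compounds directly: the first encodes an alpha-class and the next a pi-class glutathione S-transferase, and the last encodes the microsomal epoxide hydrolase. Gsta2 (chr8:88064829-88077168) gave 53880, 52338, 57971 and 54877 in liver with probe A_44_P109608, 45561 and 45790 in small intestine, and 19.3 and 23.4 in spleen. With probe A_43_P13967 it gave 28897, 27725, 19114 and 18573 in liver, 24753 and 25143 in small intestine, and 9.64 and 10.6 in spleen. In spleen 2 of 4 and 1 of 4 readings were well above background. Small intestine was thus at least 2142-fold and 1260-fold above spleen (adjusted p = 3.6e-05 and 3.23e-05), and liver at least 2567-fold and 1166-fold above spleen (adjusted p = 6.28e-06 and 5.95e-06), and these 4 calls held with 1 value per pair. Liver and small intestine differed by a log2 of 0.26 (interval -0.53 to 1.05) with the first probe and -0.11 (interval -0.87 to 0.64) with the second. Probe sequences were not used here, so a share from other alpha-class genes of near-identical sequence cannot be told apart.

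Gstp1 (chr1:210767237-210770242) gave 18727 and 17635 in small intestine, 5331 and 5211 in spleen, and 913, 909, 1147 and 1147 in liver. The order was small intestine, spleen, liver, with no overlap. Gstp1 was 17.8-fold lower in liver than in small intestine (log2 difference -4.15, interval -4.71 to -3.59, adjusted p = 5.82e-05; 0.009 with 1 value per pair) and 5.16-fold lower in liver than in spleen (adjusted p = 0.000412; 0.0215 with 1 value per pair). It was 3.45-fold lower in spleen than in small intestine (adjusted p = 0.00428), which did not hold with 1 value per pair (0.0926). Ephx1 (chr13:95246079-95275852) gave 4902, 4817, 6740 and 7474 in liver, 422 and 380 in small intestine, and 260 and 261 in spleen. Liver was 14.7-fold above small intestine (adjusted p = 0.000344; 0.0128 with 1 value per pair) and 22.6-fold above spleen (adjusted p = 0.000152; 0.00829 with 1 value per pair), while small intestine and spleen did not differ beyond the test (adjusted p = 0.303).

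Counted over the 13 member probes, 8 differed between spleen and small intestine (1 higher and 7 lower in spleen), 7 between liver and small intestine (3 higher and 4 lower in liver) and 10 between liver and spleen (8 higher and 2 lower in liver). These are counts of probes, not genes: all 3 Txnrd1 and 2 Gsta2 probes were called in each contrast with spleen. In liver against small intestine 2 Txnrd1 probes were called. Over all 30592 probes tested, 27.9%, 40.6% and 49.4% passed the same threshold. In the named direction, 14.9% of all probes were higher and 13% lower in spleen than in small intestine, 19.4% higher and 21.2% lower in liver than in small intestine, and 22.1% higher and 27.3% lower in liver than in spleen. With 1 value per pair the member counts were 4, 3 and 8, against 10.1%, 20.2% and 31.2% of all probes, and 3, 2 and 8 of the calls above were among them. The Gpx2 probe was the further call in the contrasts with small intestine. The 3 differences share pooled samples and are not independent of one another.

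**Figure D2:**
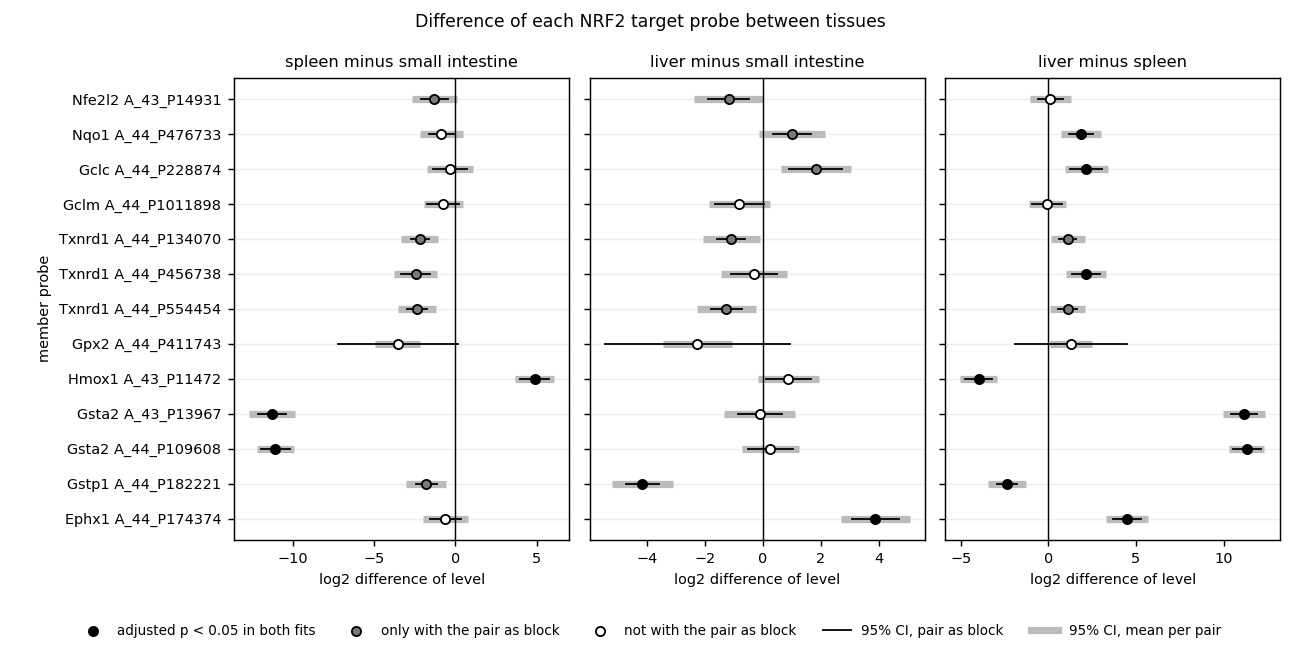
Difference in level between tissues (log2, positive where the tissue named first was higher) for the 13 member probes, with the 95% confidence interval of limma with the pair of arrays as block (thin line) and with 1 value per pair (grey bar); black points passed an adjusted p of 0.05 in both fits, grey points with the block alone, and open points did not pass with the block. The fitted differences of the Gsta2 probes, whose spleen readings were partly below background, lie near -11 and 11 in the contrasts with spleen, and Hmox1 is the single member above 0 in spleen minus small intestine.

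The next comparison asked whether LO changed these genes. The ratios are the deposited log10 ratios turned to log2 LO/control. The small intestine and spleen have 1 pool per group, so their ratios are described without a test within the tissue. In liver, limma on the 2 dye-averaged groups called 0 of 13 member probes and 0 of 30592 probes (0%), with 1778 probes at an unadjusted p below 0.05. The adjusted p of the members lay between 0.830 and 1. The 2 groups leave a single residual degree of freedom, and a count of 0 at this size does not show that the genes were unchanged. For the 11 bright probes all 95% confidence intervals of the liver ratio lay within 0.786 and 1.31. These intervals rest on the spread between the 2 groups of pooled RNA, so they set no bounds for single rats.

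By the cut-offs of the study, here required of all arrays of a tissue (a ratio of at least 1.5 up or 0.75 down, read as Cy5/Cy3, on every array of the tissue, the cut-offs changing places where LO is in Cy3, with a single-array P below 0.01), 0 of 22 member features were called in any tissue, against 9 of 43345 features (0.0208%) for small intestine, 7 (0.0161%) for spleen and 4 (0.00923%) for liver. The study applied its cut-offs to each pair of arrays, and by pair the liver counts were 9 (0.0208%) for Group1 and 17 (0.0392%) for Group2, or 351 (0.81%) and 543 (1.25%) without the P threshold, with 0 member features in each. Without the P threshold, 309 (0.713%), 239 (0.551%) and 20 (0.0461%) features were called. These held 1 member feature, the Gpx2 probe in spleen, among 0.399% of features called up there. The published list of top molecules also names this gene as raised in spleen. That list comes from these same arrays, so it is not a second source. The published methods state the P threshold, but the published gene counts are far above the counts found here with it. They lie close to the counts without it for small intestine, spleen and the second liver group alone. The counts with P are thus stricter than the published lists. The limma fit of the difference in LO response between tissues sets single pools of small intestine and spleen against each other and against the 2 liver groups, and takes all of its spread from the liver groups, as if the lone pools varied alike. It called 0 of 13 members and 0 of 30592 probes in each of the 3 contrasts, with 1111, 1377 and 1452 probes at an unadjusted p below 0.05.

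**Figure D3:**
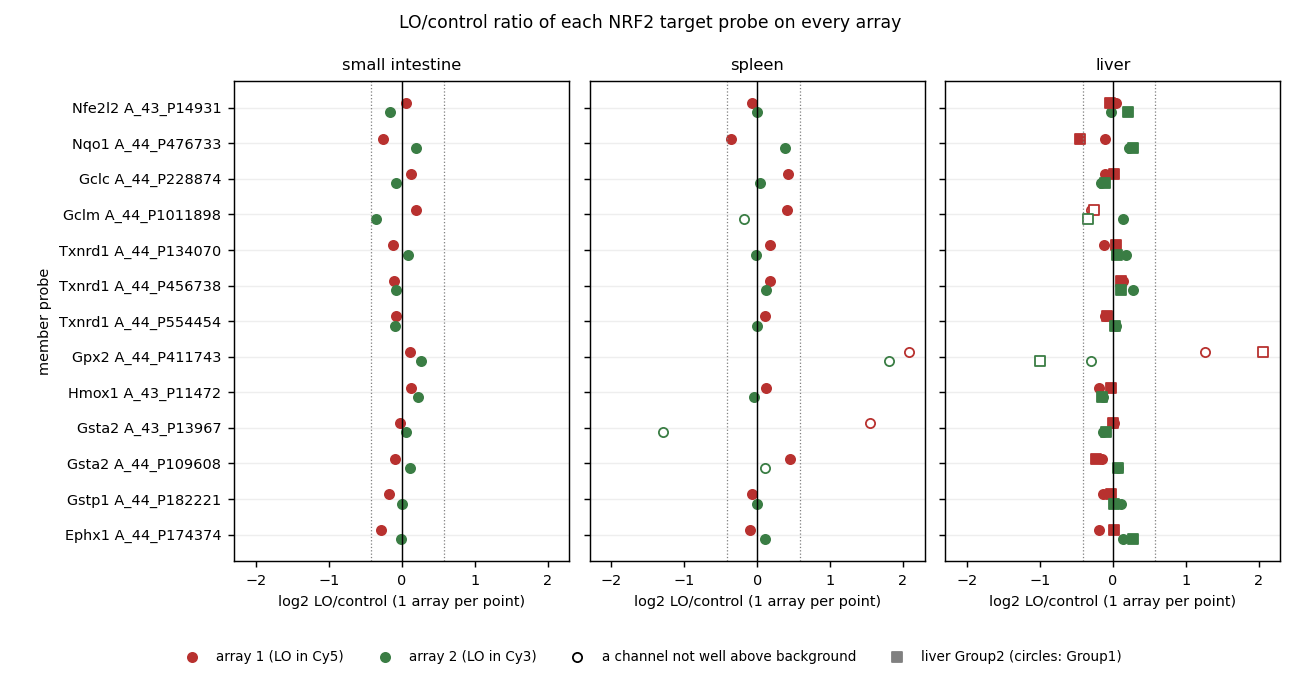
Log2 LO/control of the 13 member probes on each array (red, array 1 with LO in Cy5; green, array 2 with LO in Cy3; in liver circles are Group1 and squares Group2); open symbols had a channel not well above background and dotted lines mark ratios of 0.75 and 1.5. Filled symbols lie from -0.45 to 0.45, and the open symbols of Gpx2 and of a Gsta2 probe in spleen or liver lie far out.

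Some members kept 1 direction on every array, and the share of all bright probes that did so stands beside each count. In small intestine 2 of 13 bright member probes were higher and 3 lower with LO on both arrays, against 15.6% and 13.2% of 22772 bright probes (28.8% in all). In spleen 2 of 9 were higher and 2 lower, against 15.7% and 18.7% of 22800 (34.4% in all). In liver 1 of 11 was higher and 1 lower on all 4 arrays, against 4.61% and 4.16% of 16317 (8.77% in all). The smallest single-array P of a bright member probe was 0.16, 0.0527 and 0.0592 in the 3 tissues.

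Hmox1 was higher with LO on both arrays of the small intestine and lower on all arrays of the liver. In small intestine array 1 gave deposited signals of 904 (control) and 987 (LO), and array 2 gave 714 and 835, a mean ratio of 1.13. In liver they were 1073 and 938, 1036 and 940, 1129 and 1111, and 1099 and 995, lower with LO on all 4 arrays. Its mean liver ratio was 0.917 (95% confidence interval 0.786 to 1.07, limma adjusted p = 0.841). In spleen, where the gene was highest, the ratio was above 1 on array 1 and below 1 on array 2 (log2 0.12 and -0.04). The Hbb and Alas2 probes were higher with LO on both arrays in small intestine (median log2 0.29) and the spleen (0.26) and lower in their mean in liver (-0.12), and their part in the Hmox1 ratios was not tested.

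Txnrd1 probe A_44_P456738 was higher with LO on all 4 liver arrays, with log2 ratios of 0.14, 0.27, 0.12 and 0.12. The mean ratio was 1.12 (interval 0.954 to 1.31, adjusted p = 0.830). In spleen it was also higher on both arrays (0.17 and 0.12) and in small intestine lower on both (-0.11 and -0.08). The other 2 probes of Txnrd1 had liver ratios of 1.03 and 0.981 and did not keep 1 direction over the 4 arrays.

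The glutathione ligase genes and Nqo1 showed how far single ratios depended on the array. Gclc in spleen had signals of 106 (control) and 142 (LO) on array 1 and 81.0 and 83.0 on array 2, which gave the highest mean ratio of a bright member in that tissue, 1.17, and nearly all of it came from array 1. In liver Gclc was lower with LO on 3 of 4 arrays (mean ratio 0.940, interval 0.8 to 1.1). Gclm was higher on array 1 and lower on array 2 in both small intestine (log2 0.19 and -0.35) and spleen (0.40 and -0.19). Nqo1 was lower with LO on array 1 and higher on array 2 in every tissue, with log2 ratios of -0.26 and 0.19 in small intestine, -0.35 and 0.38 in spleen, -0.11 and 0.22 in liver Group1, and -0.45 and 0.27 in liver Group2. Cy3 was thus the brighter dye for Nqo1 on all 8 arrays. Its dye-averaged ratios were 0.978, 1.01 and 0.989 (liver interval 0.818 to 1.20).

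Nfe2l2 itself and the abundant conjugation genes stayed near 1. Nfe2l2 had mean ratios of 0.963 in small intestine, 0.971 in spleen and 1.03 in liver (interval 0.891 to 1.20). Gstp1 had 0.942, 0.977 and 0.998 (interval 0.873 to 1.14). The Gsta2 probes had 1.01 and 1.02 in small intestine, and 0.959 (interval 0.835 to 1.1) and 0.966 (interval 0.844 to 1.11) in liver. Ephx1 had signals of 584 (control) and 478 (LO) on array 1 and 444 and 439 on array 2 of the small intestine, the lowest mean ratio of that tissue at 0.900. Its ratio was 1.004 in spleen and 1.04 in liver (interval 0.847 to 1.29).

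The ratios furthest from 1 belonged to dim probes. In spleen the member probe of Gpx2 had deposited signals of 3.89 (control) and 16.5 (LO) on array 1 and 7.54 and 26.4 on array 2. LO was higher in both dye orientations, but none of the 4 readings was well above background, the P values were 0.0246 and 0.0284, and no fold is given. The mean log2 ratio of 1.95 became 0.37 with normexp background correction. That setting adds 50 to each signal, which by itself pulls ratios of signals this dim towards 1. The drop therefore does not test the LO difference. The NM_183403 probe of Gpx2 gave 4.34 and 7.36 on array 1 and 7.54 and 5.81 on array 2, also below background, with a deposited ratio of exactly 1 on array 2. In liver the member probe gave 8.25 and 19.9, 27.3 and 22.2, 12.7 and 53.0, and 45.5 and 22.8, so Cy5 was brighter on all 4 arrays and the sign of the ratio turned with the dye. The dye average of each liver group nonetheless came to 0.48 and 0.53 (unadjusted p = 0.00734, adjusted p = 0.830), and 3 of these 8 readings were well above background. The NM_183403 probe went the other way in liver, with dye averages of -0.09 (Group1) and -0.44 (Group2). Only 1 of its 8 liver readings was well above background. In small intestine, where Gpx2 was bright, array 1 gave 148 and 160, and array 2 gave 135 and 162, a mean ratio of 1.14. The NM_183403 probe had a log2 ratio of -0.22 and 0.33 there.

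The Gsta2 probe A_43_P13967 in spleen gave 7.95 (control) and 23.3 (LO) on array 1 and 12.7 and 5.2 on array 2. Cy5 was again the brighter dye on both arrays, and the log2 ratios of 1.55 and -1.29 opposed each other. The other Gsta2 probe gave 22.5 and 30.6, and 24.3 and 26.1. Beside these spleen values stand those of the hepatocyte markers. Of 14 hepatocyte probes, 10 were bright in spleen, and 9 of the 10 were higher with LO on both arrays, with a median log2 ratio of 0.55. Of all bright spleen probes, 15.7% were higher on both arrays. The summed signal of the 14 hepatocyte probes in spleen ran from 759 to 778 in the control pool and from 951 to 1303 in the LO pool, against at least 1442930 in liver. Much of the spleen sum came from 1 Alb probe, A_44_P1017367, with a mean of 428, whereas the other Alb probes gave 56.4 and 42.5. Probes of Cyp7a1 and Tat had 0 readings above background in spleen, and they were also the dimmest hepatocyte probes in liver (767 and 2416). The part of hepatocyte transcripts in the Gsta2 and Gpx2 values was not tested.

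**Figure D4:**
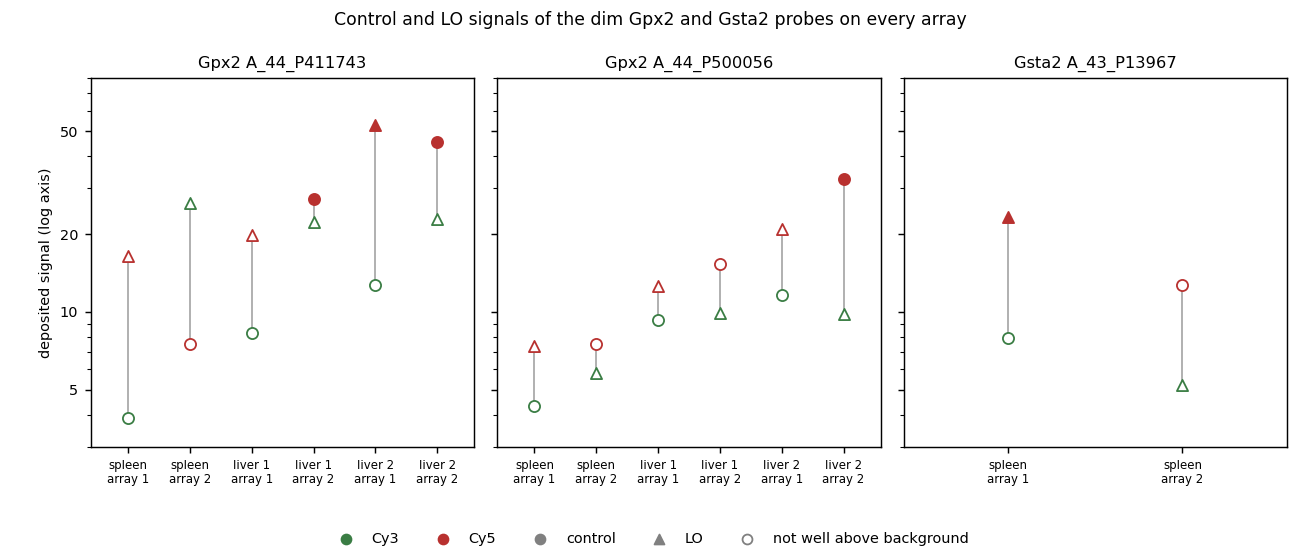
Deposited signals (log axis) of the control (circles) and LO (triangles) RNA on each spleen and liver array for both Gpx2 probes and on the spleen arrays for the Gsta2 probe A_43_P13967, coloured by dye; open symbols were not well above background. The Cy5 symbol lies above the Cy3 symbol on every array shown except array 2 of the spleen for the Gpx2 probe A_44_P411743.

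Within liver, the 2 groups differed from each other more than LO differed from control for most member probes. For 10 of the 11 bright member probes, the log2 gap between Group1 and Group2 (control and LO averaged) was larger than the LO difference in either group. Control and LO of a group shared their arrays, whereas the groups were on different arrays. The share of all bright liver probes with such a gap was not counted, so the count is not read as particular to these genes. Group1 was higher for 5 of the 11. Gaps of 1.5-fold for Gsta2 probe A_43_P13967, 1.5-fold for Gclc and 1.47-fold for Nfe2l2 were all higher in Group1. Ephx1 was 1.46-fold and Nqo1 1.40-fold higher in Group2. The exception was Txnrd1 probe A_44_P134070, with a gap of 1.03-fold. These gaps are given without a test, since each group is 1 pair of arrays.

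The other genes of the pathway were read from a list of 77 genes of the glutathione, thioredoxin, NADPH, heme, phase II and NRF2 regulator systems. Of these, 63 had a probe matched by transcript, with 79 probes in all. In small intestine, 75 bright probes had a median log2 ratio of -0.02 (all bright probes 0.00), and 6 (8%) were higher and 11 (14.7%) lower on both arrays, against 15.6% and 13.2% of all bright probes. In spleen, 75 had a median of -0.00 (all -0.01), with 14 (18.7%) higher and 11 (14.7%) lower, against 15.7% and 18.7%. In liver, 72 had a median of -0.00 (all -0.00), with 7 (9.72%) higher and 5 (6.94%) lower on all 4 arrays, against 4.61% and 4.16%. None was called by limma in liver or by the cut-offs with P in any tissue.

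**Figure D5:**
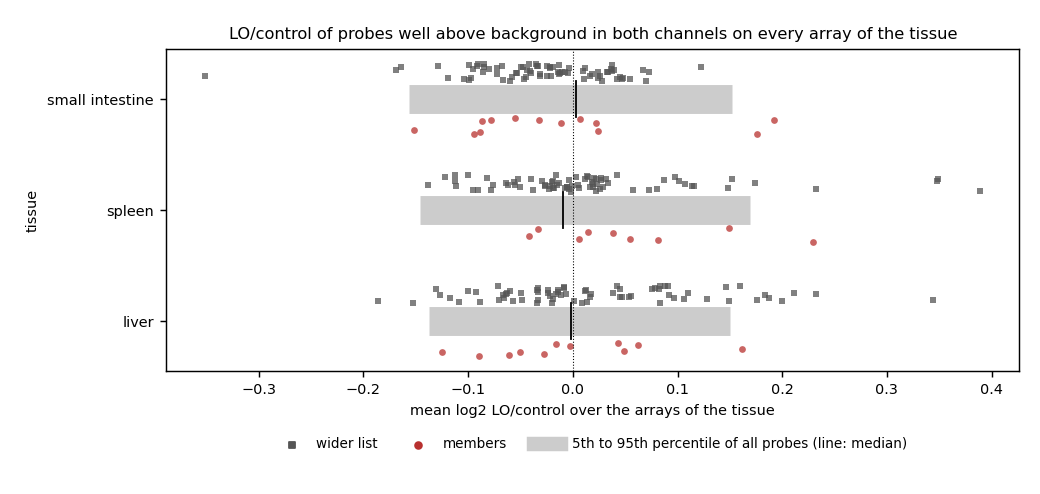
Mean log2 LO/control of each bright probe of the wider list (grey squares) and of the members (red circles) by tissue, with the 5th to 95th percentile and the median of all bright probes (grey bar and black line). Most symbols fall inside the grey bars, with Pir to the left in small intestine, the Abcc4 probes to the right in spleen and Gstm3 to the right in liver. Of the members, Gpx2 and Hmox1 lie to the right of the bar in small intestine, Gclc in spleen and Txnrd1 probe A_44_P456738 in liver.

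The ends of that list were as follows. In small intestine Pir, which encodes pirin, was lowest with log2 ratios of -0.21 and -0.49, followed by Akr1b8, an aldo-keto reductase (-0.26 and -0.07), and Txn1, thioredoxin itself, was highest (0.10 and 0.15), with Gsto1 next (0.08 and 0.07). In spleen 2 probes of Abcc4, an export pump for conjugates, were highest with 0.42 and 0.28, and 0.50 and 0.28, at signals of 24.5 to 70.3. Abcc2 (0.30 and -0.57) and Osgin1 (0.09 and -0.34) were lowest by their mean there, with opposite signs on the 2 arrays.

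In liver Gstm3, a mu-class glutathione S-transferase, had the highest mean, with log2 ratios of 0.40, 0.31, 0.48 and 0.18. Its signals were 131 (control) and 173 (LO), 137 and 170, 180 and 253, and 210 and 238, higher with LO on all 4 arrays. The mean ratio was 1.27 (interval 1.11 to 1.45), and it did not pass over all probes (limma adjusted p = 0.830). Sqstm1, the autophagy adaptor that binds KEAP1, followed with a ratio of 1.17 (interval 0.88 to 1.57), higher on 4 of 4 arrays. Ugt2b1, a glucuronosyltransferase, was lowest at 0.879 (interval 0.734 to 1.05) and lower on 4 of 4 arrays, and the metallothionein gene Mt1 was next at 0.900 (interval 0.448 to 1.81). Mafk, a small MAF partner of NRF2, was called up in liver by the cut-offs without the P threshold, with log2 ratios of 0.67, 0.68, 1.48 and 0.51. It was 1 of the 0.0208% of features called up there. Its signals ran from 9.06 to 59.5, and 3 of 8 readings were well above background.

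Between tissues 78 probes of the wider list were tested. In liver against spleen 48 were higher and 11 lower (median log2 difference 1.33, all probes -0.10), beside the 22.1% and 27.3% of all probes given above. In spleen against small intestine 10 were higher and 34 lower (median -0.83, all probes 0.12), beside 14.9% and 13%. In liver against small intestine 32 were higher and 20 lower (median 0.36, all probes -0.00), beside 19.4% and 21.2%. With 1 value per pair, 41, 22 and 34 of these calls held, beside 31.2%, 10.1% and 20.2% of all probes called in that fit. Among the conjugating enzymes, Ugt2b1 was at least 163-fold (with 2 of 4 readings in small intestine above background) and the sulfotransferase gene Sult1a1 196-fold higher in liver than in small intestine (adjusted p = 0.00201 and 6.63e-06), and Gstm2 was 147-fold higher in liver than in spleen (adjusted p = 9.33e-06). Among the peroxide enzymes, Cat, catalase, was 22.2-fold higher in liver than in small intestine (adjusted p = 0.000244), and the 2 probes of Gpx1, the cytosolic glutathione peroxidase, were 6.70-fold and 6.87-fold higher in liver than in small intestine (adjusted p = 0.00032 and 0.000311).

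Ggt1, the transpeptidase that splits extracellular glutathione, was at least 144-fold lower in liver, where 4 of 8 readings were above background, than in small intestine (adjusted p = 4.41e-05), and Akr1b8 was 107-fold lower (adjusted p = 1.47e-05). Txnip, the thioredoxin-interacting protein, was 18.4-fold lower in liver than in spleen (adjusted p = 0.000672). Blvra, biliverdin reductase A, which acts on the product of heme oxygenase, was 2.49-fold higher in spleen than in small intestine (adjusted p = 0.0188; 0.148 with 1 value per pair) and 3.15-fold lower in liver than in spleen (adjusted p = 0.00249). Keap1, the NRF2 repressor, was 2.11-fold higher in liver than in small intestine (adjusted p = 0.0166) and 2.05-fold higher than in spleen (adjusted p = 0.0156), and with 1 value per pair these adjusted p-values were 0.11 and 0.0987.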

How the data were processed

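Images were extracted by the authors with Agilent Feature Extraction 11.0.1.1 (version per the submitters' processing notes). They deposited, per the file headers, the log10 ratio of Cy5 over Cy3 after background subtraction and LOWESS dye normalization, a p-value from a single-array error model, dye-normalized signal intensity and uncorrected median intensity. The deposited value table of the series, also log10 ratios, differed from these only where the ratio was exactly 1.

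Ratios were turned to log2 LO/control, and 34 flagged features and all controls were left out. Copies of a probe were averaged. Probes with a reading well above background on 2 or more of the 8 arrays (30592 of 40979) were tested with limma 3.58.1 in R 4.3.3 and Benjamini-Hochberg adjustment at 0.05. LO in the liver was tested on the 2 dye-averaged groups, and levels on separate channels after A-quantile scaling, with the pair of arrays as random block (correlation 0.874, estimated from 4 pairs). The mean of control and LO per pair was added as an alternative after the data were seen. The fits were tested on simulated data, where the block fit underestimated the correlation within pairs (0.308 simulated, -0.0155 estimated) and made more false calls than 1 value per pair. The simulation did not use the higher correlation of the data. The adjusted p-values of the block fit may be too small, and any named call that 1 value per pair did not keep is given with both. The replicate number is the dye orientation: deviations of arrays of the same number correlated between 0.554 and 0.805 over 6 pairs, and the number as a block is among the alternatives. P-values measure the spread between pooled samples, not between rats.

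Gene names came from RefSeq transcripts of the GRCr8 build, which named 10768 of 41012 probes. The members, lists and tests were chosen with earlier results of these data known. Named were every member probe, tissue markers, the 2 highest and 2 lowest bright probes of the wider list in each tissue, and probes past a test, of which the examples between tissues were picked after their values were seen. Python 3.11.15, numpy 2.4.6, pandas 2.3.3 and matplotlib 3.10.9 made tables and figures. The alternatives were other background corrections (normexp with 50 added to each signal), scalings, filters and fits, and each replicate left out. The number of pools limits the precision.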

Additional observations from a re-analysis of the deposited data

How the results depend on the processing

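No member probe was called for LO in the liver under any alternative run. Over all probes the main count of 0 became 2 with probes bright on every liver array, 150 with normexp and loess, and 117 with the 8 arrays as separate values and the pair as random block. With the replicate block (dye orientation) on the 8 separate arrays, the count was 0 and no member call changed. For the cut-offs, the counts of 9, 7 and 4 features in small intestine, spleen and liver became 309, 239 and 20 without the P threshold and 205, 146 and 12 with symmetric cut-offs as well, of which 1 in the spleen each time was a member, Gpx2. Bright spleen features without P gave 14. Leaving out a replicate gave 446 to 1027 in small intestine, 297 to 722 in spleen (members 0 to 1, the Gsta2 probe A_43_P13967 without replicate 2) and 507 to 636 in liver. Group1 alone gave 9, or 351 without P, and Group2 alone 17, or 543 without P.

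The counts between tissues depended on how pairs were treated. For spleen against small intestine the count over all probes was 16038 without the block, 3662 with control pools, 3278 with LO pools and 3097 with 1 value per pair. For liver against small intestine it was 19858, 6783, 6493 and 6175. For liver against spleen it was 10030 with control pools, 9718 with LO pools and 9540 with 1 value per pair. Member counts were 4 for spleen against small intestine with LO pools and with 1 value per pair, and 3 for liver against small intestine with control pools, with LO pools and with 1 value per pair. Scaling each channel by its 75th percentile moved the median of all probes from -0.00 to 0.20 (liver minus small intestine) and from -0.10 to 0.19 (liver minus spleen), and the member counts stayed at 8, 7 and 10.

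No called difference turned its sign. Among differences that were not called, Gsta2 A_43_P13967 in liver minus small intestine became 0.37 under that scaling. Gclm in liver minus spleen became 0.26 under that scaling, 0.0198 with normexp, 0.0762 with control pools and -0.75 to 0.61 with a replicate left out. With a replicate left out, the LO log2 ratios in the liver ran from -0.28 to 0.25 for Nqo1, from -0.0325 to 0.119 for Txnrd1 A_44_P134070, from -0.0938 to 0.0389 for Txnrd1 A_44_P554454, from -0.111 to 0.00985 for Gsta2 A_43_P13967, from -0.189 to 0.0682 for Gsta2 A_44_P109608, from -0.0747 to 0.0692 for Gstp1, from -0.0849 to 0.209 for Ephx1 and from -0.65 to 1.67 for Gpx2. Gclm became 0.0380 with normexp. A fit without a replicate keeps 1 dye orientation and so holds the dye effect. The cause of the other shifts was not tested.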
